A study of Homo sapiens with 16 samples.

Results

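The genes described here are 9 neighbours on the long arm of human chromosome 3, in band 3q21, on either side of *RPN1*, the gene near which the 3q21 end of inv(3) breaks. They are *MGLL*, *SEC61A1*, *RUVBL1*, *EEFSEC*, *RPN1*, *RAB7A*, *ACAD9*, *RAB43* and *CNBP*, taken by gene name from the 60623 genes counted in each of 16 RNA-Seq libraries, and all 9 were found in every library. All libraries came from MUTZ-3, an acute myeloid leukemia line with inv(3), kept in medium with GM-CSF and with supernatant of the bladder carcinoma line 5637. In the PARP inhibitor (PARPi) experiment, cells were left untreated at 0 h, or received the DMSO vehicle, olaparib at 10 µM or talazoparib at 1 µM and were harvested 12, 24 and 48 h later. In the knockdown experiment, cells carried a pLKO.1 lentivirus with the non-targeting shRNA SHC002 (NTC) or with 1 of 2 shRNAs against *EVI1*, shEVI1-2531 and shEVI1-2532, were selected with puromycin and harvested at day 3 and day 6. The deposited names of the shEVI1-2531 libraries carry another shRNA number than the labels, which were followed, so every shEVI1-2531 value rests on the labels. Each of the 16 conditions was sequenced once. An inhibitor library was compared with DMSO of the same hour and a knockdown library with NTC of the same day, so the errors below rest on how far the time points or days depart from each other.

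In inv(3), a distal enhancer of *GATA2* is carried from 3q21 to *EVI1* (listed as MECOM) on 3q26, where it drives that oncogene, while the *GATA2* copy on the same chromosome loses it. The 9 genes lie on either side of *RPN1* in the reference order, so some may be carried along with the inverted segment and others left in place, and where MUTZ-3 breaks was not analysed here. They serve cell functions that do not belong to a shared pathway. *RPN1* codes for ribophorin I, a subunit of the oligosaccharyltransferase that attaches sugar chains to nascent proteins, and *SEC61A1* for the channel through which those proteins enter the endoplasmic reticulum. *EEFSEC* codes for the elongation factor that brings selenocysteine to the ribosome. *RUVBL1* encodes an ATPase of the INO80, SRCAP and TIP60 chromatin complexes, and *CNBP* a zinc finger protein that binds nucleic acids. *RAB7A* and *RAB43* are small GTPases of late endosomes and of the Golgi. *ACAD9* is needed to assemble respiratory complex I, and *MGLL* is the lipase that splits monoacylglycerols.

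From the centromere outwards on chromosome 3 (GRCh38), the order was *MGLL* (127689062 to 128052190, minus strand), *SEC61A1* (128051641 to 128071683, plus), *RUVBL1* (128064778 to 128153914, minus), *EEFSEC* (128153481 to 128408646, plus), *RPN1* (128619969 to 128681075, minus), *RAB7A* (128726122 to 128814796, plus), *ACAD9* (128879596 to 128916067, plus), *RAB43* (129087569 to 129122801, minus) and *CNBP* (129169484 to 129183922, minus). *GATA2* and the non-coding *LINC01565* lie in the gap of 211 kb between *EEFSEC* and *RPN1*, and *RAB7A* begins 45.0 kb beyond *RPN1*. Each of the first 3 genes overlaps the next, head to head or tail to tail. In GENCODE 29, 15.3% of the exon bases of *EEFSEC*, 10.4% of those of *RUVBL1* and 7.32% of those of *SEC61A1* are also exon on the opposite strand, and 10.5% of those of *ACAD9* overlap *KIAA1257* in the same way. The kit was stranded, but whether the counting used strand is not given in the sources used here, so reads in these stretches cannot be assigned for certain. Of the exon bases of *RAB43*, 79.3% belong also to the *ISY1-RAB43* readthrough on the same strand, and its counts are therefore uncertain.

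The promoters of *EEFSEC*, *RUVBL1* and *ACAD9* are shown because these were the members whose inhibitor effect passed the test for a change with time, described further on. The sequences are those of the reference (RefSeq, GRCh38.p14), not of MUTZ-3, written 5′ to 3′ in the direction of the gene and cut to bases outside annotated exons. Capitals mark the E-box CACGTG or the CCAAT box, searched on either strand. For *EEFSEC* the window lies wholly within the first exon of a *RUVBL1* transcript on the other strand, so only its E-box with 12 bases on each side is given (chr3:128153268-128153297, plus strand). The stretch of *RUVBL1* lies before its inner start at 128123812 (chr3:128123825-128124062, minus strand), 29.7 kb from the *EEFSEC* start, and that of *ACAD9* before 128879620 (chr3:128879370-128879595, plus strand).
EEFSEC: ggcaggaggagcCACGTGagagagaaaccc
RUVBL1: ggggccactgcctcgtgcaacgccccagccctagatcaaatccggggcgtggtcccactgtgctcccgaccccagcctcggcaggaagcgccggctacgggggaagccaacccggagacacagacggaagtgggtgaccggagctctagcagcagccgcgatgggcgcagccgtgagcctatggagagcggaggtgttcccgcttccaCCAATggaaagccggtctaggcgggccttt
ACAD9: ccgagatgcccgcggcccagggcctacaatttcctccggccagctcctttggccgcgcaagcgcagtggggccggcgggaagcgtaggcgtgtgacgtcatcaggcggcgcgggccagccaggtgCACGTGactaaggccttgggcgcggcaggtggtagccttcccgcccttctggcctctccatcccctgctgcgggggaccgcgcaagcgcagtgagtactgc

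RefSeq promoters were at hand for 7 of the 9 members, with 12 start sites in all. In the 250 bases before the start, CACGTG occurred at 2 of the 12 start sites (*EEFSEC* and *ACAD9*) and in 6.34% of 35116 promoters of the same length. The CCAAT box occurred at 3 of the 12 (in *RUVBL1* and *CNBP*) and in 32.0% of those promoters. The GC box GGGCGG occurred at 9 of the 12, in all genes but *RUVBL1*, and in 42.6% of those promoters. Windows of the *RAB43* start sites overlap in part, so the 12 are not independent. The motifs do not overlap each other in the stretches shown. A match of letters is a description and not a binding site.

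Most members were well expressed. Per kilobase of exon, the median level over the 10 PARPi libraries was highest for *CNBP* at 262 CPM per kb (CPM are counts scaled to a library total of 1e6), followed by *RPN1* at 112, *RAB7A* at 109, *SEC61A1* at 77.7, *RUVBL1* at 18.3, *ACAD9* at 10.9 and *EEFSEC* at 8.96 CPM per kb. *RPN1* ranged from 75.3 to 124 CPM per kb and *RAB7A* from 90.2 to 121, so these neighbours in the order overlap, as do *ACAD9* (4.83 to 14.5) and *EEFSEC* (2.86 to 12.8). *RAB43* was low at 0.364 CPM per kb, with 68 to 161 counts per PARPi library and 132 to 388 per knockdown library. *MGLL* was close to absent, with 8 to 37 counts per PARPi library and 2 to 18 per knockdown library, where 3 counts are taken as the smallest level a library can show. *LINC01565* had 1 count or none in every library.

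**Figure D1:**
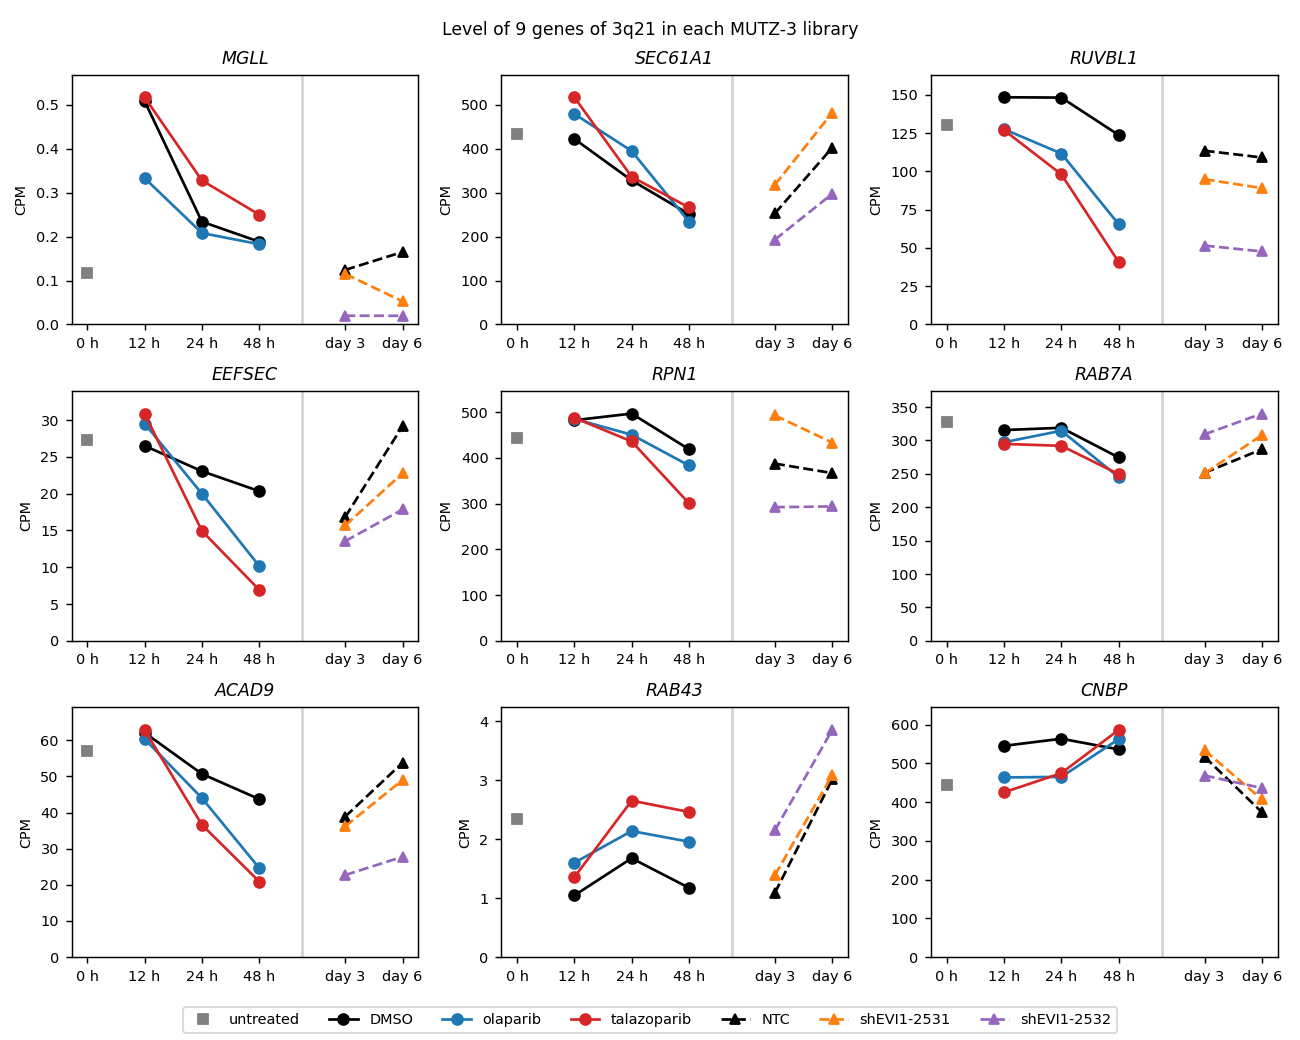
Level of each of the 9 genes in CPM (counts scaled to a library total of 1e6, vertical axis from 0) in the 16 libraries, 1 point per library, by hours of treatment on the left of the grey line and by day after knockdown on the right. Among the PARPi libraries, *RUVBL1*, *EEFSEC* and *ACAD9* are lowest at 48 h of inhibitor, while *RPN1*, *RAB7A* and *CNBP* stay within a 1.69-fold range in each experiment.

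The libraries held 55999673 to 72681943 counts in the PARPi and 95523038 to 120716213 in the knockdown experiment. The targeted gene MECOM was at 28.9% and 41.8% of NTC with shEVI1-2531 at day 3 and day 6, and at 10.6% and 9.10% with shEVI1-2532. CPM ratios and fitted effects differ in scale, since the fit used TMM, which equalizes the bulk of genes. By CPM the median log2 ratio of all genes tested was −0.19 and −0.27 for olaparib and talazoparib at 48 h, −0.18 and −0.14 for shEVI1-2531, and −0.27 and −0.31 for shEVI1-2532, but between −0.02 and 0.02 for both inhibitors at 12 and 24 h. Below, CPM ratios are named as such and carry a 95% confidence interval that covers counting error only, and fitted log2 fold changes are relative to the bulk of genes.

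The inhibitor effect on *RUVBL1*, *EEFSEC* and *ACAD9* grew more negative with time. For *RUVBL1*, CPM were 148, 148 and 124 in DMSO at 12, 24 and 48 h, 128, 112 and 65.5 in olaparib, and 127, 98.0 and 40.8 in talazoparib, against 130.2 in untreated cells. Its CPM ratio to DMSO was below 1 in 6 of 6 pairs, and the 48 h libraries stood at 52.9% of DMSO with olaparib (log2 ratio −0.92, −0.97 to −0.86) and at 33.0% with talazoparib (−1.60, −1.67 to −1.53). The 4 inhibitor libraries of 24 and 48 h lay below all 3 DMSO libraries, and the 12 h pair did not.

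*EEFSEC* had 26.5, 23.1 and 20.3 CPM in DMSO, 29.5, 20.0 and 10.2 in olaparib, and 30.9, 14.9 and 6.93 in talazoparib, with 27.3 in untreated cells. It was above DMSO at 12 h, at 111% with olaparib and 117% with talazoparib, and below it at 48 h, at 49.96% (log2 ratio −1.001, −1.14 to −0.86) and 34.1% (−1.55, −1.72 to −1.39). The direction thus differed between the first and the last time point with either compound.

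*ACAD9* had 62.1, 50.7 and 43.7 CPM in DMSO, 60.3, 44.0 and 24.6 in olaparib and 62.8, 36.6 and 20.9 in talazoparib, with 57.1 in untreated cells. The 12 h inhibitor libraries were within counting error of DMSO, and the 48 h libraries were at 56.4% (log2 ratio −0.83, −0.92 to −0.74) and 47.9% (−1.06, −1.16 to −0.96). DMSO itself went down by 0.51 between 12 and 48 h on the log2 CPM scale for *ACAD9*, by 0.38 for *EEFSEC* and by 0.26 for *RUVBL1*, so the loss in inhibitor libraries came on top of a smaller one in their controls.

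**Figure D2:**
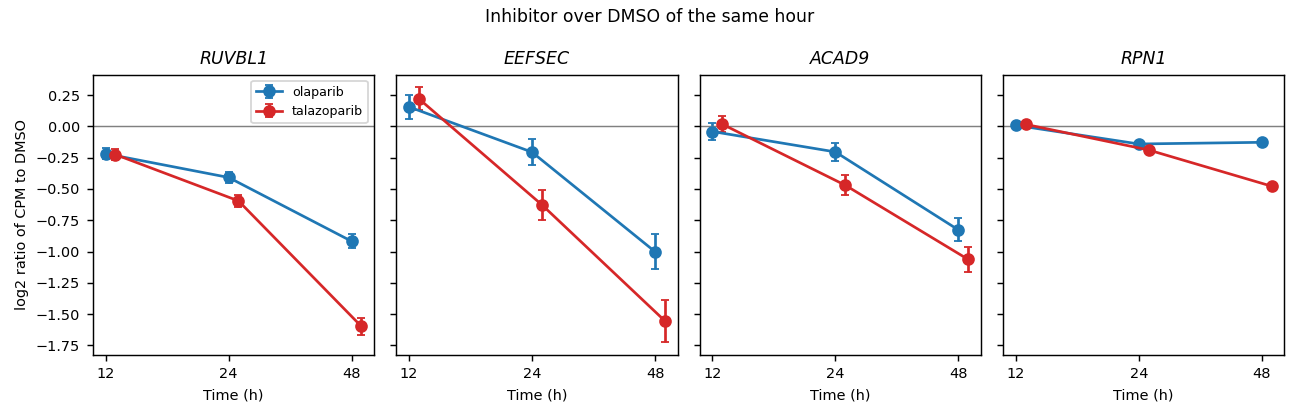
log2 ratio of CPM to DMSO of the same hour for 4 genes at 12, 24 and 48 h (horizontal axis, spaced by doubling; talazoparib points are shifted slightly), with 95% counting intervals that for *RPN1* are smaller than the points. *EEFSEC* starts above 0 and ends at −1.55 with talazoparib, *RUVBL1* ends at −1.60, *ACAD9* at −1.06 and *RPN1* at −0.48.

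In edgeR's quasi-likelihood test of the change of the mean inhibitor effect with each doubling of time, 3 of the 9 members passed an adjusted p of 0.05, all with a negative change, where 9.82% of the 17218 genes tested passed in that direction and 19.8% in either. The change was −0.63 per doubling on the log2 scale for *EEFSEC* (standard error 0.14, adjusted p = 8.97e-05), −0.41 for *RUVBL1* (0.13, adjusted p = 0.0125) and −0.36 for *ACAD9* (0.13, adjusted p = 0.0374). The other members had −0.05 (*RPN1*, 95% interval −0.31 to 0.21), −0.02 (*SEC61A1*), 0.08 (*RAB7A*), 0.30 (*CNBP*, adjusted p = 0.0921), 0.31 (*RAB43*) and 0.35 (*MGLL*). The median change was −0.02 over the members and −0.01 over all genes tested. The test had 2 residual degrees of freedom and took its spread from all genes together. With a slope shared by both inhibitors and 12, 24 or 48 h left out, it called 0, 1 and 0 members. The share of all genes called in those fits is not given here, so these counts are not read as particular to the members. Without 48 h the change of *EEFSEC* was −0.61, that of *RUVBL1* −0.28 and that of *ACAD9* −0.33, none of them called.

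Markers of cell state moved over the same hours. The summed level of 6 monocyte markers was 501 to 645 CPM in DMSO, 533 to 635 at 12 h of inhibitor, 945 to 1429 at 24 h and 2173 to 3973 at 48 h. The 5 proliferation markers went the other way, from 1278 to 1518 CPM in DMSO to 1032 to 1204, 504 to 1008 and 123 to 417 CPM at 12, 24 and 48 h of inhibitor. *LYZ* alone was at 1809 to 3496 CPM at 48 h of inhibitor, so the monocyte sum mostly follows that gene. By the same test of change with time, 4 of the 6 monocyte markers rose (*CD14*, *LYZ*, *ITGAM* and *FCGR1A*). *CD163* (2.11, adjusted p = 0.206) and *CSF1R*, which went the other way (−0.32, adjusted p = 0.0629), did not pass. Of the 5 proliferation markers, 4 fell (*TOP2A*, *MKI67*, *PLK1* and *CCNB1*). Of the 4 myeloid progenitor markers tested, *MPO* (−0.86), *CD34* (−0.83) and *KIT* (−0.80) fell. The 4th, *CD33*, had a change in the other direction that did not pass (0.30, adjusted p = 0.0938). The sum over the list was 3141 CPM in DMSO at 48 h against 1218 with olaparib and 765 with talazoparib. Most of it was *MPO*, at 513 to 907 CPM in the 48 h inhibitor libraries. The part of all these markers in the values of *RUVBL1*, *EEFSEC* and *ACAD9* was not tested. In bulk libraries, fewer cells of a type and less RNA per cell cannot be told apart.

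*RPN1* moved little with the inhibitors. It had 482, 497 and 419 CPM in DMSO, 485, 451 and 383 in olaparib and 488, 436 and 301 in talazoparib, with 443 in untreated cells. The inhibitor libraries stood at 101% of DMSO at 12 h with either compound, at 90.7% and 87.7% at 24 h and at 91.5% and 71.8% at 48 h. Scaled by TMM, the 48 h log2 ratios were 0.06 for olaparib and −0.21 for talazoparib instead of −0.13 and −0.48 by CPM. The fitted mean effect was −0.07 (standard error 0.10, 95% interval −0.30 to 0.15, adjusted p = 0.628).

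*SEC61A1* was at 422, 328 and 251 CPM in DMSO, at 479, 394 and 234 in olaparib and at 517, 336 and 266 in talazoparib. Its largest differences were thus between hours and not between treatments, with a DMSO ratio of 48 to 12 h of −0.75 on the log2 scale and a mean inhibitor effect of 0.21 (standard error 0.10, adjusted p = 0.184). *RAB7A* stayed between 245 and 328 CPM in all PARPi libraries, and its mean effect was −0.03 (−0.23 to 0.18). *CNBP* was at 536 to 564 CPM in DMSO, at 425 to 475 in the 4 inhibitor libraries of 12 and 24 h and at 563 and 586 in those of 48 h, with a mean effect of −0.08 (standard error 0.14).

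*RAB43* had 68, 122 and 75 counts in DMSO, 101, 144 and 118 in olaparib and 97, 154 and 138 in talazoparib. All 6 CPM ratios to DMSO were above 1, from 128% to 209%, and in 4 of them the counting interval left out no change. The level was unsteady without inhibitor, however, since DMSO at 12 h stood at 44.7% of untreated cells (log2 ratio −1.16, −1.59 to −0.74). *MGLL* had 33, 17 and 12 counts in DMSO, 21, 14 and 11 in olaparib and 37, 19 and 14 in talazoparib, and in none of the 6 pairs did the counting interval leave out no change.

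Averaged over time points and compounds, 0 of the 9 members passed edgeR's quasi-likelihood test, against 4.17% of all genes. At an unadjusted p under 0.05 there were 3 members, *RUVBL1* with a log2 fold change of −0.59 (standard error 0.16, adjusted p = 0.0594), *ACAD9* with −0.36 (0.14, adjusted p = 0.106) and *RAB43* with 0.71 (0.20, adjusted p = 0.0629). *EEFSEC* had −0.44 (standard error 0.21, adjusted p = 0.172). DESeq2 called *RUVBL1* and *RAB43*, where it called 20.0% of all genes. Without the 12 h libraries edgeR called *RUVBL1*, *EEFSEC*, *ACAD9* and *RAB43*, with *RUVBL1* at −0.77 and *EEFSEC* at −0.74, so the average depends on whether that hour is counted. The share of all genes called without that hour is not given here, so these calls are not read as particular to the members.

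Olaparib and talazoparib, which both block the catalytic site of PARP1 and PARP2, were given at different doses, and compound and dose cannot be told apart. Olaparib alone called 0 of the 9 members (0.639% of all genes), with *RUVBL1* at −0.47 (95% interval −0.90 to −0.04) and *RAB43* at 0.61, which were the 2 members at an unadjusted p under 0.05, and DESeq2 also called 0. Talazoparib alone called 0 members as well (4% of all genes), with *RUVBL1* at −0.70 (−1.14 to −0.27, adjusted p = 0.0556), *RAB43* at 0.80 (adjusted p = 0.0585) and *ACAD9* at −0.41 (adjusted p = 0.108), which were the 3 at an unadjusted p under 0.05, and DESeq2 called *RUVBL1* and *RAB43*. For the difference between the compounds at these doses, edgeR called 0 members and 0 of the 17218 genes (0%), with 354 genes at an unadjusted p under 0.05 and no member among them, and DESeq2 called 1 gene, no member. The interval of the difference was −0.66 to 0.20 for *RUVBL1*, −0.79 to 0.33 for *EEFSEC*, −0.46 to 0.26 for *ACAD9* and −0.35 to 0.17 for *RPN1*, which leaves room for effects of unequal size. At 48 h, talazoparib libraries stood at 62.4% of olaparib libraries for *RUVBL1*, 68.2% for *EEFSEC*, 84.9% for *ACAD9* and 78.4% for *RPN1* by CPM.

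After knockdown with shEVI1-2532, *RUVBL1* and *ACAD9* fell and *RAB7A* and *RAB43* rose, while *MGLL* was too low in these libraries to judge. *RUVBL1* had 113 and 109 CPM with NTC at day 3 and day 6, 94.8 and 89.1 with shEVI1-2531 and 51.5 and 47.7 with shEVI1-2532. The shEVI1-2532 libraries were at 45.4% (log2 ratio −1.14, −1.19 to −1.09) and 43.7% of NTC (−1.19, −1.24 to −1.14), and on either day the order was NTC, shEVI1-2531, shEVI1-2532. The fitted log2 fold change of shEVI1-2532 was −0.86 (standard error 0.13, adjusted p = 0.000210). That of shEVI1-2531 was −0.11 (0.13, adjusted p = 0.616 by edgeR's test) and did not pass. Scaled by TMM, the log2 ratios of *RUVBL1* with shEVI1-2531 were −0.09 at day 3 and −0.12 at day 6.

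*ACAD9* had 38.9 and 53.8 CPM with NTC, 36.2 and 49.0 with shEVI1-2531, and 22.7 and 27.8 with shEVI1-2532, which was 58.5% and 51.6% of NTC, and a fitted change of −0.56 (standard error 0.15, adjusted p = 0.00990). With NTC, *ACAD9* stood at 138% of its day 3 level on day 6. *EEFSEC* differed more between its controls, with 16.8 CPM at day 3 and 29.2 at day 6, and had 13.6 and 17.9 CPM with shEVI1-2532. Its fitted change was −0.21 (standard error 0.17, adjusted p = 0.338).

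*RAB7A* had 252 and 287 CPM with NTC, 250.8 and 308 with shEVI1-2531 and 309 and 340.2 with shEVI1-2532. Its shEVI1-2532 libraries were the highest of each day, with a fitted change of 0.57 (standard error 0.12, adjusted p = 0.00283). *RAB43* had 132 and 329 counts with NTC and 216 and 388 with shEVI1-2532, a fitted change of 0.96 (0.25, adjusted p = 0.00891), but its NTC level at day 6 was 276% of that at day 3. *MGLL* had 15 and 18 counts with NTC, 11 and 6 with shEVI1-2531 and 2 and 2 with shEVI1-2532, and the CPM ratios of shEVI1-2532 were 16.05% (log2 ratio −2.64, −5.81 to −0.54) and 12.0% (−3.05, −6.20 to −0.99). These rest on counts at or below the smallest level a library can show. *MGLL* entered the test only through the NTC libraries and shEVI1-2531 at day 3, where it was highest. It passed with edgeR (adjusted p = 0.0337), but not with DESeq2 (adjusted p = 0.138) or with edgeR and no day in the model (adjusted p = 0.0520). Its call is therefore not taken as support for a fall.

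In all, 5 of the 9 members passed the test for shEVI1-2532, 3 lower (*MGLL* among them, at the low counts above) and 2 higher. Of the 18606 genes tested, 41.1% passed (19.9% lower, 21.2% higher), so calls were common among all genes. Shares of all genes in the fits below with libraries or the day left out are not given here. Counts of members in those fits are therefore not read as particular to the members. The count was 3 without either NTC library or either shEVI1-2532 library, and 1 with no day in the model. Scaled to the library total only, the count by edgeR's test was 6, all lower, where 5957 of the 18606 genes tested were called lower. *SEC61A1*, *EEFSEC* and *RPN1* were added, and *RAB7A* (0.27, adjusted p = 0.0868) and *RAB43* (0.66, adjusted p = 0.0544) were no longer called. The median fitted change was −0.11 over the members and 0.00 over all genes. For shEVI1-2531, 2 members passed, both higher, against 17.4% of all genes and 9.49% higher, and none passed without NTC day 3, NTC day 6 or shEVI1-2531 day 3. For the mean of both shRNAs 3 members passed (34.3% of all genes), *RUVBL1* at −0.49 (standard error 0.11, adjusted p = 0.00449), *RAB7A* at 0.40 (0.11, adjusted p = 0.0138) and *RAB43* at 0.65 (0.22, adjusted p = 0.0372), with 1 left without NTC day 3 or NTC day 6.

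The members higher with shEVI1-2531 were *RPN1* and *SEC61A1*. *RPN1* had 387 and 367 CPM with NTC, 493 and 434 with shEVI1-2531 and 292 and 294 with shEVI1-2532, so NTC lay between the shRNAs on either day. *SEC61A1* showed the same order, with 253 and 402 CPM with NTC, 318 and 482 with shEVI1-2531, and 193 and 297 with shEVI1-2532. The fitted change for shEVI1-2531 was 0.46 (standard error 0.13, adjusted p = 0.0265) for *RPN1* and 0.46 (0.12, adjusted p = 0.0216) for *SEC61A1*. With scaling to the library total only, neither passed (adjusted p = 0.1145 for *RPN1* and 0.107 for *SEC61A1*). With shEVI1-2532 the sign by CPM and by TMM has to be read apart, since *RPN1* was at 75.4% and 80.1% of NTC by CPM but at −0.15 and 0.03 on the log2 scale after TMM, and its fitted change was −0.06 (−0.34 to 0.22). For *SEC61A1* the fitted change was −0.11 (−0.38 to 0.16). Scaled to the library total only, both were called lower with shEVI1-2532, *RPN1* at −0.36 (adjusted p = 0.0307) and *SEC61A1* at −0.41 (adjusted p = 0.0155), where the median of all genes lay at −0.30.

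The 2 shRNAs, which lowered MECOM to different levels, differed in 4 of the 9 members, all lower with shEVI1-2532, where 24.2% of all genes differed and 12% were lower. The difference was −0.76 for *RUVBL1* (standard error 0.13, adjusted p = 0.00130), −0.61 for *ACAD9* (0.15, adjusted p = 0.0111), −0.57 for *SEC61A1* (0.12, adjusted p = 0.00546) and −0.52 for *RPN1* (0.13, adjusted p = 0.0115). For *RAB7A* it was 0.36 (adjusted p = 0.0535) and for *EEFSEC* −0.15 (95% interval −0.51 to 0.22). The median over the members was −0.52, and 0.02 over all genes. Shares of all genes called with a library or the day left out are not given here. The next counts are therefore not read as particular to the members. Without shEVI1-2532 day 3, 2 of the 4 passed, and with no day in the model none did.

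**Figure D3:**
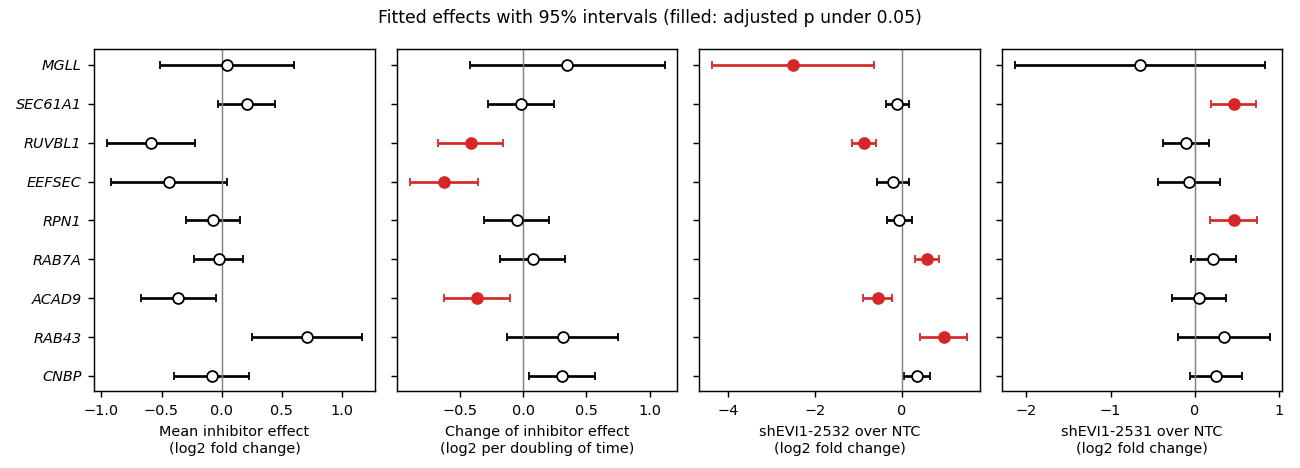
Fitted log2 effects of the 9 genes with 95% intervals in 4 comparisons, from left to right the mean inhibitor effect, its change per doubling of time, shEVI1-2532 and shEVI1-2531 against NTC (the horizontal scales differ). Filled red points passed an adjusted p of 0.05, which are 0, 3, 5 and 2 of the 9 genes.

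Cell state markers differed between the shRNAs too. The 6 monocyte markers summed to 379 to 515 CPM with NTC, 1258 to 1379 with shEVI1-2531 and 4410 to 5889 with shEVI1-2532, and the 5 proliferation markers to 847 to 952, 519 to 535 and 233 to 249 CPM. The 5 markers of myeloid progenitors summed to 3930 to 4142 CPM with NTC and 1852 to 2911 with shEVI1-2532. Most of this was *MPO*, at 3234 to 3490 and 1677 to 2732 CPM, which did not pass edgeR's test (−0.37, adjusted p = 0.145). Of the others, *CD34*, *KIT* and *FLT3* fell and *CD33* rose with shEVI1-2532. *FLT3* was too low to be tested in the PARPi experiment. With shEVI1-2531 the sum of the 5 was 3412 CPM at day 3 and 5366 at day 6, with *MPO* at 3161 to 5097 CPM. *CD34* fell with this shRNA, and *KIT* (0.71, edgeR, adjusted p = 0.0321) and *CD33* rose. The part of these markers in the members' values was not tested. As a check of the line, 5 erythroid markers summed to at most 1.21 CPM in any library with *HBA2* at 0 in all, 4 T cell markers to 3.17 to 11.5, and 4 B cell markers to 9.93 to 29.1 with *MS4A1* at 0 in all. Of 6 epithelial markers, *KRT5* was at 0 in all libraries and *KRT17* was the most abundant. *EPCAM*, *TP63* and *CDH1* were at 0 in some libraries. The sum of the list was 115 to 149 CPM in DMSO and 815 to 863 at 48 h of inhibitor. It was 270.1 to 319 with NTC against 864 to 990.4 with shEVI1-2532. *KRT17* alone was at 115 to 148, 813 to 861, 268 to 317 and 863 to 987 CPM in that order. The sum thus follows that gene and not the list, and the part of *KRT17* in the members' values was not tested.

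The scaling also moved the split of calls over all genes. With scaling to the library total, 31.0% of the called genes were higher in the change with time (50.4% with TMM), 28.4% for shEVI1-2532 (51.5%), 31.6% for shEVI1-2531 (54.6%), 25.9% for the mean of both shRNAs (50.5%) and 33.7% for the difference of the shRNAs (50.4%), while for talazoparib 90.5% were higher (75.0%). The median of all genes tested then lay at −0.12, −0.30, −0.16, −0.23 and −0.11 for the first 5 of these.

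The stretch from 500 kb before *MGLL* to 500 kb after *CNBP* holds 76 other genes in the files, of which 25 were tested in the PARPi and 30 in the knockdown experiment. In the change of the inhibitor effect with time, 3 rose and 4 fell, where 1721 of all 17218 genes tested rose and 1691 fell. The replication helicase gene *MCM2* changed by −0.88 per doubling (standard error 0.13, adjusted p = 1.36e-09), *ABTB1* by 0.86 (0.14, adjusted p = 1.56e-08) and *EFCC1* by −1.11 (0.21, adjusted p = 1.97e-06). *GATA2*, the blood stem cell factor whose enhancer the inversion moves, had −0.06 (0.13, adjusted p = 0.794). The median was −0.06 over these neighbours and −0.01 over all genes.

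With shEVI1-2532, 10 of the 30 neighbours fell and 3 rose, with a median of −0.50 against 0.00 over all genes, where 19.9% of all genes fell and 21.2% rose. *GATA2* fell by 0.81 on the log2 scale (standard error 0.15, adjusted p = 0.00118), and its CPM were at 45.3% and 46.9% of NTC. *MCM2* fell by 0.89 and *ABTB1* rose by 1.69. *EFCC1*, whose start lies 321 kb from that of *RPN1*, had 198 and 745 counts with NTC and 12 and 20 with shEVI1-2531. With shEVI1-2532 it had 1 and 3 (edgeR, adjusted p = 1.20e-06), at or below the smallest level a library can show. Its NTC level also differed between days, at 1.64 and 6.83 CPM, so the size of its fall is uncertain. On the centromeric side of *RPN1*, 2 of the 8 neighbours tested rose and 3 fell with shEVI1-2532, and on the telomeric side 1 of 21 rose and 7 fell. With shEVI1-2531, 3 rose and 4 fell, with the smallest p for *EFCC1*, *KIAA1257* (−1.95) and *GP9* (−2.19), where 1765 of all 18606 genes tested rose and 1470 fell. Between the shRNAs 3 were higher and 4 lower with shEVI1-2532, where 2271 of all genes were higher and 2234 lower.

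**Figure D4:**
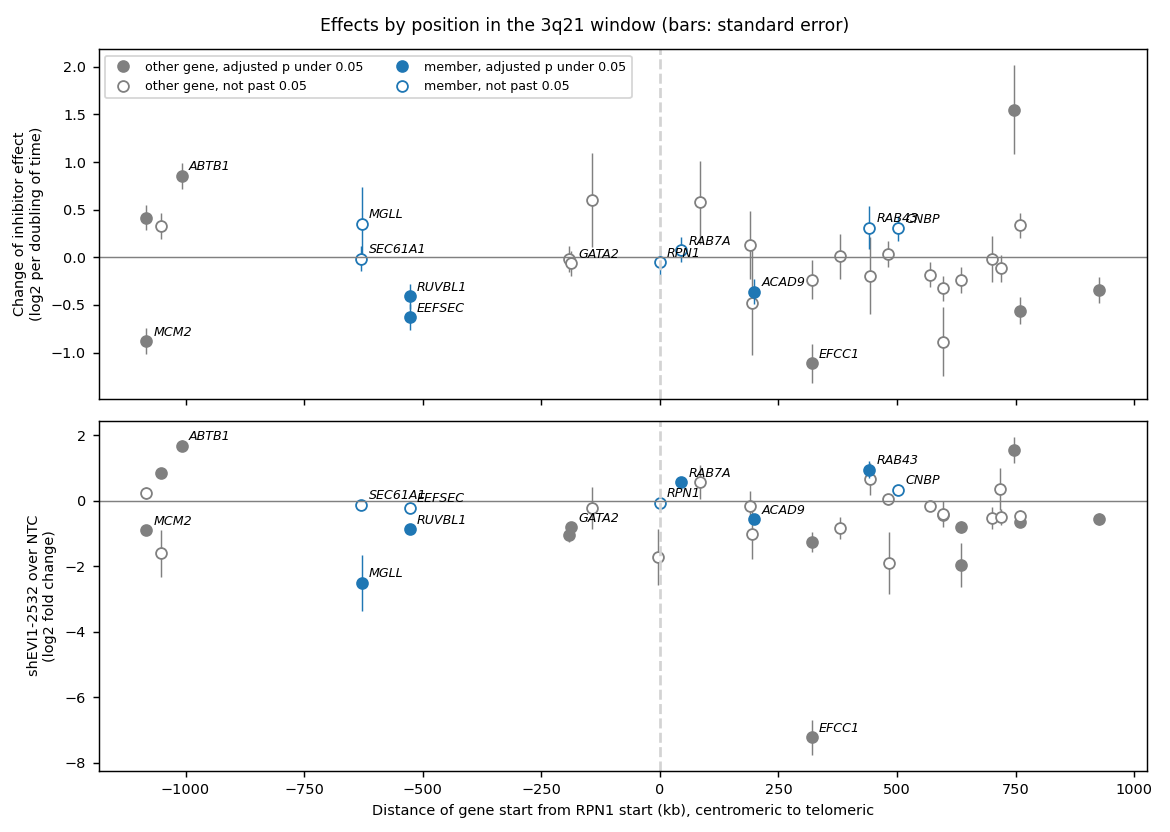
Fitted effects of members (blue) and other genes of the window (grey) by distance of the gene start from that of *RPN1* in kb, for the change of the inhibitor effect per doubling of time (top) and shEVI1-2532 against NTC (bottom), with standard errors as bars and filled points for an adjusted p under 0.05. Genes with positive and negative effects lie side by side on both sides of *RPN1*, at the dashed line.

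The counts below include the member of each list, and they stand beside the following shares of all genes. In the change with time, 9.82% were lower and 1721 of 17218 higher. With shEVI1-2532, 19.9% were lower and 21.2% higher, and with shEVI1-2531, 1470 of 18606 were lower and 9.49% higher. Between the shRNAs, 12% were lower with shEVI1-2532. Of 17 tested genes of the RUVBL complexes, 3 had a falling inhibitor effect with time and none a rising effect (*ACTL6A* −0.47, *YEATS4* −0.43 and *RUVBL1*; 2 of 16 without *RUVBL1*), and the list median was −0.16. With shEVI1-2532, 5 of 18 fell and none rose (4 of 17 without *RUVBL1*), led by *RUVBL1*, *YEATS4* at −1.22 and *ACTL6A* at −0.89, and with shEVI1-2531, *YEATS4* and *INO80* fell. Of 7 genes that insert selenocysteine, *EEFSEC*, *SECISBP2* (−0.58) and *SEPHS1* (−0.34) had a falling inhibitor effect. With shEVI1-2532, *SECISBP2* and *SEPHS1* fell and the selenophosphate synthetase gene *SEPHS2* rose by 0.87. Of 7 factors of complex I assembly, *ECSIT* (−0.38) and *ACAD9* had a falling inhibitor effect, *COA1* (−1.74) and *ACAD9* fell with shEVI1-2532, and 5 of the 7 were lower with shEVI1-2532 than with shEVI1-2531, with a list median of −0.59.

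The glycosylation and translocation partners followed the shRNAs without a shared direction. Of 11 tested oligosaccharyltransferase genes, none passed the test for a change of the inhibitor effect with time, at a median of 0.03. With shEVI1-2531, *DDOST* (0.75), *RPN1* and *STT3A* (0.45) rose and *MAGT1* (−0.74) fell, and with shEVI1-2532 3 rose (*RPN2*, *DDOST* and *OST4*) and 2 fell (*KRTCAP2* and *MAGT1*). Of 12 genes of the SEC61 translocon, 3 rose and 1 fell with shEVI1-2531 (*SSR2* at 0.50, *SEC61A1* and *SSR4*, against *SSR3* at −0.42), and 4 rose and 2 fell with shEVI1-2532. The inhibitor effect rose with time for *SEC62* and *SSR4* and fell for *TRAM2*.

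Of 16 genes of the RAB7 cycle, 5 rose and 3 fell with shEVI1-2532, where *VPS18* had 1.29, *PLEKHM1* 0.81 and *CCZ1B*, a near copy of *CCZ1* whose reads may be split between them, −1.51. With shEVI1-2531 3 rose and 2 fell, and the inhibitor effect rose with time for 3 (*VPS18*, *PLEKHM1* and *RILP*). Of 8 genes of monoacylglycerol metabolism, the fatty acid amide hydrolase gene *FAAH* had a rising inhibitor effect at 1.26 per doubling. With shEVI1-2532, *DAGLA*, *ABHD6* and *FAAH* rose, while *MGLL* was called lower at the low counts given above.

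Over the 10 log2 CPM ratios (6 inhibitor to DMSO and 4 shRNA to NTC), the genes whose ratios ran most like those of *RPN1* among the 8988 others compared were *DANCR*, *TMEM186* and *TIMM23*, with Pearson's r of 0.99, 0.98 and 0.98. Among the members, r to *RPN1* was 0.85 for *RUVBL1*, 0.81 for *ACAD9*, 0.70 for *SEC61A1*, 0.60 for *EEFSEC*, −0.06 for *CNBP* and −0.17 for *RAB7A*. It was 0.17 for *MGLL* and −0.75 for *RAB43*, members too low in counts to be among the genes compared. These are descriptions, since ratios of the same hour or day share a control library and its depth.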

How the data were processed

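RNA-Seq libraries of MUTZ-3 were made with a stranded mRNA kit. The authors deposited raw counts per gene and TPM, and the submitters' processing notes name STAR, Picard, featureCounts and GRCh38, with no versions. The deposited TPM, which divide by gene span with introns, matched values recomputed from the counts and were used for nothing else. Groups followed the labels, and nothing says that libraries came from separate cultures.

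A gene was tested where 3 of 9 PARPi or 2 of 6 knockdown libraries held 10 counts or more, with edgeR 4.0.16 in R 4.3.3 (TMM, quasi-likelihood, Benjamini-Hochberg over all genes tested, threshold 0.05), with time point or day in the model (4 and 2 residual degrees of freedom, 2 for the slope on log2 hours). The untreated library entered no test. CPM ratios carry 95% exact intervals, which cover counting error only, and 3 counts were 0.0249 to 0.0536 CPM. Alternatives used DESeq2 1.42.0, other scalings, filters and models, and left out libraries, with no time in the model or a shared slope, the last added after the data were seen. The fits were tested on simulated data.

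The members, the gene and marker lists and the tests were chosen with earlier results of these data known. Named are all members, MECOM, *GATA2*, *LINC01565*, the 3 genes most like *RPN1* (mean log2 CPM above 3) and up to 3 genes per list and comparison with the smallest p among those called. Others called in small counts, the members of the marker lists and *KRT17* were named after their values were seen. Figures were drawn with matplotlib 3.10.9.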

Additional observations from a re-analysis of the deposited data

Results flagged for a closer look

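In 7 cases a member's effect differed between groups by a test of the difference itself (edgeR's quasi-likelihood test, adjusted over all genes). Between shEVI1-2532 and shEVI1-2531, the log2 difference was −0.76 for *RUVBL1*, −0.61 for *ACAD9*, −0.57 for *SEC61A1* and −0.52 for *RPN1*, each lower with shEVI1-2532 on both days. Of all genes tested, 24.2% differed between the shRNAs and 12% were lower. Between time points, the inhibitor effect changed by −0.63 per doubling of time for *EEFSEC*, −0.41 for *RUVBL1* and −0.36 for *ACAD9*, where 19.8% of all genes passed and 9.82% with a negative change. *RUVBL1* and *ACAD9* are in both sets. The calls of a change with time were mostly lost with a time point left out. Those between the shRNAs were all lost with no day in the model. How many of all genes lost their calls in the same fits is not given here, so this loss is not read as particular to the members.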

How the results depend on the processing

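The share of all genes called moves with the setting as well and is given only where named. Counts without it are not read as particular to the members. Of the 9 members, the number past the threshold changed as follows. For the mean inhibitor effect and for talazoparib it was 2 without a filter on low counts. With DESeq2 it was 2 as well, against 20.0% and 21.7% of all genes. With a time point left out it was 0 to 4 (4 without 12 h). For olaparib and for the difference of the compounds it was 0 under every alternative run (over 8 members at 50 counts or more, 9 otherwise). For the change with time it was 3 with a slope shared by both inhibitors, and 0 to 1 with a time point left out as well. It was 2 with upper quartile scaling or no filter, where *ACAD9* was lost (edgeR, adjusted p = 0.0558 and 0.0729). Upper quartile scaling called 1906 of 17218 genes higher and 1501 lower. *RUVBL1*, *EEFSEC* and *ACAD9* had a negative change with time under all alternatives run. With separate slopes, no time point could be left out, since no residual degree of freedom remains. With a library left out, the number was 3 to 5 for shEVI1-2532, 0 to 2 for shEVI1-2531, 1 to 3 for their mean and 2 to 4 for their difference. With no day in the model it was 1, 0, 0 and 0 in that order, and with both shRNAs as 1 group it was 0. With library totals it was 6 for shEVI1-2532 (*SEC61A1* at −0.41, *EEFSEC* at −0.51 and *RPN1* at −0.36 gained, *RAB7A* and *RAB43* lost). There 2360 of 18606 genes were called higher and 5957 lower. For shEVI1-2531 it was 0 with library totals, where 1049 genes were called higher and 2270 lower. The cause was not tested, except that fewer libraries enter when libraries are left out. Values that turned sign belonged to effects that did not pass the test. With library totals these were −0.0205 (*MGLL*, mean inhibitor effect), −0.0294 (*RAB7A*, change with time), −0.12 (*ACAD9*, shEVI1-2531), −0.0338 (*RPN1*, shRNA mean) and −0.0397 (*CNBP*, shRNA difference). With upper quartile scaling they were 0.0115 (*RAB7A*, mean inhibitor effect) and 0.0105 (*SEC61A1*, change with time), and the latter was 0.0034 at 50 counts or more. With libraries left out, the mean inhibitor effect ranged from −0.10 to 0.27 for *MGLL* and −0.27 to 0.0203 for *CNBP*, the olaparib effect on *RPN1* from −0.0651 to 0.0438, and the change with time from −0.0903 to 0.0624 for *SEC61A1* and −0.18 to 0.0849 for *RPN1*. The shEVI1-2532 effect on *RPN1* ranged from −0.17 to 0.0612, that of shEVI1-2531 from −1.43 to 0.0517 for *MGLL*, −0.24 to 0.10 for *EEFSEC* and −0.0166 to 0.11 for *ACAD9*, the shRNA mean from −0.32 to 0.0203 for *EEFSEC*, and the shRNA difference from −0.12 to 0.30 for *CNBP*. Scaled by TMM, log2 ratios of single libraries that turned sign were 0.0832, 0.0583 and 0.0218 for *SEC61A1*, *RPN1* and *RAB7A* at 48 h of olaparib, 0.13 for *RAB7A* at 48 h of talazoparib, 0.0641 for *EEFSEC* and 0.0643 and 0.0364 for *ACAD9* with shEVI1-2531 (*ACAD9* at day 3 and day 6, *EEFSEC* at day 3), and 0.11 for *CNBP* at day 3 and 0.0288 for *RPN1* at day 6 with shEVI1-2532. Depth limited *MGLL* and *RAB43*, the members with the fewest counts.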
